A study of Homo sapiens with 2 samples.

Results

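The integrated stress response was followed here through 10 genes in HCT116, a human colon cancer cell line, deprived of glucose. The members were chosen by gene symbol: the eIF2alpha kinases EIF2AK1, EIF2AK2, EIF2AK3 and EIF2AK4, the PP1 regulatory subunits PPP1R15A and PPP1R15B, the transcription factors ATF4 and DDIT3, and TRIB3 and EIF4EBP1. All 10 had a value among the 17987 genes listed, of which 17054 had one. Cells labelled wild type were kept for 24 hours in glucose-free medium (0 mM glucose) or for 24 hours in normal medium. Both groups were otherwise labelled alike, and the column names of the comparison call both NC. The cells are a single established line, and total RNA of each condition was sequenced as 1 library. The values are the authors' deposited log2 fold changes, glucose deprivation over normal medium. With 1 library per condition no difference below has a replicate check, a standard error or a p-value, and the depth of the libraries is unknown.

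In the integrated stress response, each of the 4 kinases senses a different stress and phosphorylates the alpha subunit of eIF2, which lowers general translation. Translation of a few mRNAs with upstream reading frames is then favoured, ATF4 among them. ATF4 is a transcription factor whose known targets include DDIT3 (the protein CHOP) and TRIB3, and PP1 bound to a regulatory subunit removes the phosphate from eIF2alpha again. RNA amounts report on the last steps of this pathway and not on kinase activity, phosphorylation or translation, none of which was measured in these libraries.

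The branch from ATF4 onwards was higher in glucose deprivation, while 3 of the 4 kinases were not. A gene was called higher above a fold of 1.2 and lower below a log2 fold change of -0.75, the sizes of the study's methods, by size alone. Of the 10 members, 6 were higher (DDIT3, TRIB3, PPP1R15A, EIF2AK3, ATF4 and EIF4EBP1), against 29.0% of all genes. None of the members was lower, against 22.3% of all genes, and the 4 others (EIF2AK4, PPP1R15B, EIF2AK2 and EIF2AK1) passed neither size. The members' median log2 fold change was 0.78, beside -0.12 over all genes. All 6 higher members also had a listed FDR of at most 0.001. Over all genes, 2706 of the 4938 higher ones had it, which is 15.9% of the genes with a value. That FDR came from a Poisson comparison of the 2 libraries. All 10 members met it, as did 7651 of the 17054 genes with a value, counting both directions. In a bulk library, less RNA in every cell and fewer cells that carry it cannot be told apart.

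**Figure D1:**
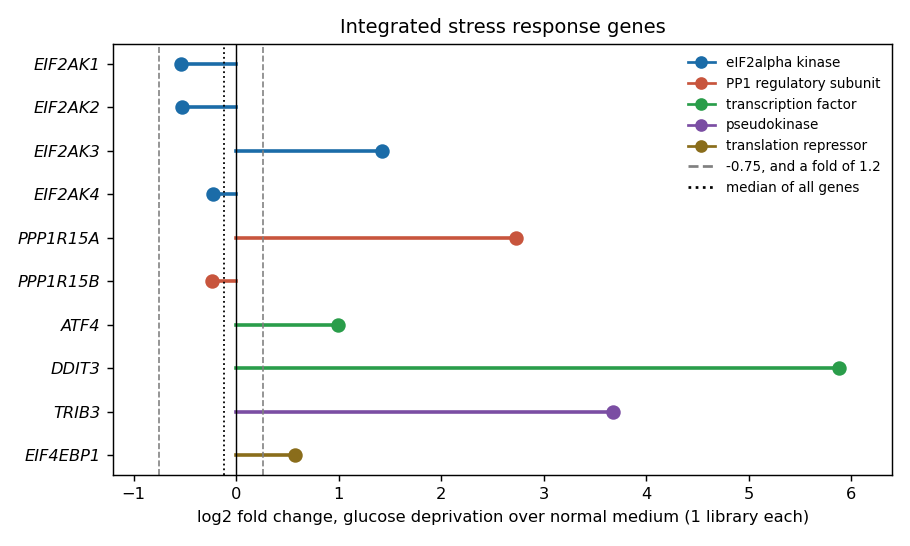
Log2 fold change (glucose deprivation over normal medium) of each of the 10 members, with the 2 size limits drawn as lines. DDIT3 lies at 5.88, TRIB3 at 3.68 and PPP1R15A at 2.73, while EIF2AK1 and EIF2AK2 lie at -0.54 and -0.53, short of the limit for a decrease.

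The table holds no levels, but each fold could be written as a ratio of 2 whole numbers in lowest terms. If the library values were whole steps of some size, they were these numbers or a common multiple of them. Over all genes the median of the smaller number was 237, and it was under 10 for 20.4% of genes. For the members it lay between 259 and 10359, so none of their folds was a ratio of a few units. These numbers are not levels and are not compared between genes.

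**Figure D2:**
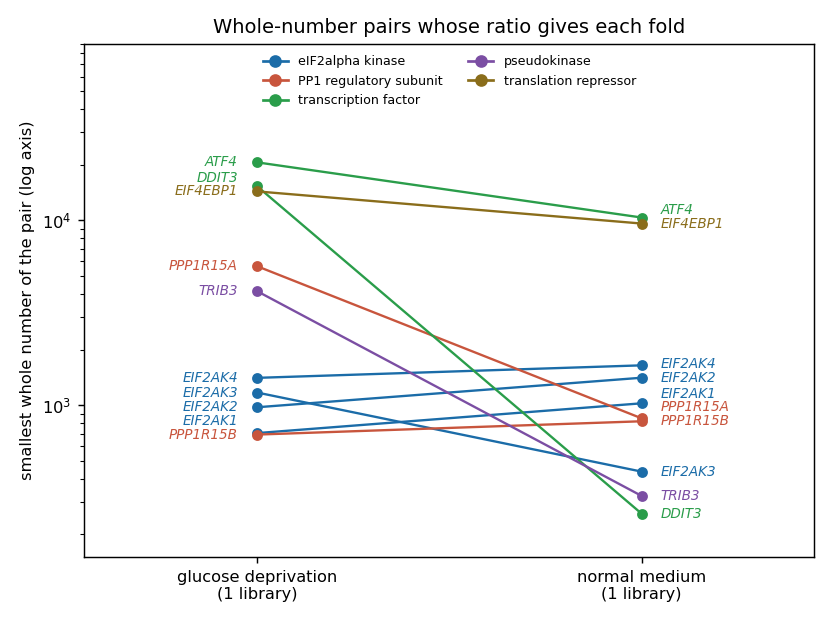
The pair of whole numbers, glucose deprivation and normal medium, that gives each member's deposited fold, on a log axis. Only the distance within a gene can be read, since each pair may be multiplied by an unknown number: DDIT3 has 15280 for glucose deprivation and 259 for normal medium, whereas EIF2AK4 has 1405 and 1642.

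The kinases differed among themselves. EIF2AK3 (PERK), a transmembrane kinase that senses unfolded proteins in the endoplasmic reticulum (ER), was the only one past a size limit. Its numbers were 1170 in glucose deprivation and 437 in normal medium, a fold of 2.68 and a log2 fold change of 1.42. This was above 93.8% of all genes. EIF2AK4 (GCN2), the kinase that senses uncharged tRNA when amino acids run short, had 1405 in glucose deprivation and 1642 in normal medium, a log2 fold change of -0.22. EIF2AK2 (PKR), which binds double-stranded RNA, had 974 in glucose deprivation and 1407 in normal medium, a log2 fold change of -0.53. EIF2AK1 (HRI), regulated by haem and known to respond to mitochondrial stress, had 706 in glucose deprivation and 1023 in normal medium, a log2 fold change of -0.54. The last 3 were all below 0, yet within the range between the 2 size limits. EIF2AK1 and EIF2AK2 would count as lower at a fold of 1.2, a size that 42.2% of all genes passed downwards. On the log2 scale the change of EIF2AK3 exceeded that of EIF2AK4 by 1.65, that of EIF2AK2 by 1.95 and that of EIF2AK1 by 1.96. The gap between EIF2AK3 and EIF2AK1 corresponds to a ratio of folds of 3.88. EIF2AK1 and EIF2AK2 were neighbours in this order and their spread is unknown, so no order between them can be given.

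The PP1 subunits form an inducible and a constitutive pair. PPP1R15A (GADD34) is the stress-induced subunit that brings PP1 to eIF2alpha, and PPP1R15B (CReP) does the same in unstressed cells. PPP1R15A had 5644 in glucose deprivation and 849 in normal medium, a fold of 6.65 and a log2 fold change of 2.73. It stood at position 314 from the top of all genes with a value, above 98.2% of them. PPP1R15B had 693 in glucose deprivation and 818 in normal medium, a log2 fold change of -0.24. Only the inducible subunit was past a size limit, and the log2 changes of PPP1R15A and PPP1R15B lay 2.97 apart, a ratio of folds of 7.85.

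The promoters of both subunits are printed here because each was the only member to hold its motif in the promoter windows examined. The promoter table of RefSeq (GRCh38.p14) gives 250 bases before to 50 bases after a start site, and 8 of the 10 members matched it, with 12 windows among them. EIF2AK1 and EIF4EBP1 had no entry. The cAMP response element TGACGTCA, read on both strands and the same on either, is in capitals in PPP1R15A at chr19:48872171-48872470, plus strand. It spans positions -58 to -51 from the start site, and 1.85% of the 35116 promoters hold it. The core of the C/EBP-ATF response element, TGATGNAA on either strand, is in capitals in PPP1R15B at chr1:204411768-204412067, minus strand. It spans positions -227 to -220 from the start site, and 3.62% of promoters hold it.
PPP1R15A: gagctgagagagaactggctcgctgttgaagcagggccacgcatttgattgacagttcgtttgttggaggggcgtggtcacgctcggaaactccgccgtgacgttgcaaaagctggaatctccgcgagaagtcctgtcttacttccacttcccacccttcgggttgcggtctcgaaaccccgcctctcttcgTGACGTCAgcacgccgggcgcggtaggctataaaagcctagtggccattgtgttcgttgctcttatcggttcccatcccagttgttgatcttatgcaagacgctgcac
PPP1R15B: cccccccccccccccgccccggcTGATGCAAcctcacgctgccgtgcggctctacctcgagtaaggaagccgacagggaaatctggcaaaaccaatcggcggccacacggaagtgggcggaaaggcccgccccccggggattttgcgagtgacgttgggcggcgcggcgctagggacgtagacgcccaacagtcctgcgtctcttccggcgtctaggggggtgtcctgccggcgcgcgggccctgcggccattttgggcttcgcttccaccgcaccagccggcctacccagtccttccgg
PPP1R15B, with the C/EBP-ATF core in its window, passed neither size, and PPP1R15A, with the cAMP response element, was higher. A match in letters is not a bound site, and a link between motif and change was not tested.

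The order of the transcription factors and TRIB3 was DDIT3, then TRIB3, then ATF4. ATF4, a basic leucine zipper factor that is controlled largely at translation, had the smallest change of these 3. Its numbers were 20591 in glucose deprivation and 10359 in normal medium, a fold of 1.99 and a log2 fold change of 0.99. This was above 89.7% of all genes and just short of 1 on the log2 scale, a size that 4 members (DDIT3, TRIB3, PPP1R15A and EIF2AK3) and 9.22% of all genes exceeded upwards. Its nearest neighbours in log2 fold change among genes with a listed FDR of at most 0.001 were TPTEP2-CSNK1E and TRPT1 above and SNX24 and FLJ44635 below, all at 0.99.

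DDIT3 encodes CHOP, a C/EBP family factor known for its part in cell death under lasting ER stress. It had 15280 in glucose deprivation and 259 in normal medium, a fold of 59.0 and a log2 fold change of 5.88. DDIT3 stood at position 13 of the 17054 genes. Among genes with a listed FDR of at most 0.001, those next above it were NCF4 (6.17) and LURAP1L (6.03), and those next below were TBC1D3H (5.86) and HKDC1 (5.65). The whole-number pairs of the genes named as neighbours of ATF4, DDIT3 and TRIB3 are not given here. They are neighbours by size of change alone, and such a fold can rest on a few units. The log2 change of DDIT3 exceeded that of ATF4 by 4.89 and that of TRIB3 by 2.20.

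The DDIT3 promoter is shown because it was the only member window near the form of the ER stress element, CCAAT followed after 9 bases by CCACG. None of the members held the exact form, which 0.0769% of promoters hold. With 1 letter of the second part free, a looser form chosen after the exact search, DDIT3 held 2 overlapping matches on opposite strands and 1.05% of promoters held at least 1. In the window at chr12:57520465-57520764, minus strand, they span positions -100 to -82 and -90 to -72 from the start site, and both together are in capitals.
DDIT3: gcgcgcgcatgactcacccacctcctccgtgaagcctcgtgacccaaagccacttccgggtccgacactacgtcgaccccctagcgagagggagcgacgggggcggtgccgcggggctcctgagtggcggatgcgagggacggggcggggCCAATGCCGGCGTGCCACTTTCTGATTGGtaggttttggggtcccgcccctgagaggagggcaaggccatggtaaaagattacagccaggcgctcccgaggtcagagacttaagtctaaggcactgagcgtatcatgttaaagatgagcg
The windows of ATF4, TRIB3 and the 3 kinases in the table held none of these motifs, which says only that the letters are not in these 300 bases.

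TRIB3, a Tribbles pseudokinase known to bind AKT and ATF4, had 4135 in glucose deprivation and 323 in normal medium. Its fold was 12.8 and its log2 fold change 3.68, at position 124 and above 99.3% of all genes. Among genes with a listed FDR of at most 0.001, LGR6 (3.77) and ATF3 (3.70), itself a stress-induced factor and known ATF4 target, came next above it and next below came TCTEX1D4 (3.62) and PTPDC1 (3.60). TRIB3 exceeded ATF4 by 2.69 on the log2 scale, a ratio of folds of 6.44.

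In TRIB3 the C/EBP-ATF core was found outside the promoter windows, in the 5′ UTR of the transcript TRIB3-201 (GENCODE v29, chromosome 20, GRCh38). Around each of 3 cores there, a stretch of 30 bases reads the same. These stretches lie at transcript bases 265 to 294, 298 to 327 and 331 to 360, and so start 33 bases apart. The 30 bases printed below as the repeat unit are a set length, and the full length of the repeat was not measured. The capitals mark the core, which reads TGATGCAA on the other strand.
TRIB3 repeat unit: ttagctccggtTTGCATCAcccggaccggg
Of 19466 coding genes, 1.80% have at least 1 such core in the 5′ UTR of the transcript examined and 3 genes (0.0154%) have 3 or more. TRIB3-201 is 1 of 2 TRIB3 transcripts examined, and the other held no core in its 5′ UTR. Of the other members, only EIF2AK3 held a core in a 5′ UTR, in 1 of its 2 transcripts.

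EIF4EBP1 (4E-BP1) binds the cap-binding protein eIF4E and so restrains cap-dependent translation, and it is a known ATF4 target in pancreatic beta cells of the mouse. It had 14341 in glucose deprivation and 9609 in normal medium, a fold of 1.49 and a log2 fold change of 0.58. This was the smallest change among the 6 higher members and above 82.6% of all genes.

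**Figure D3:**
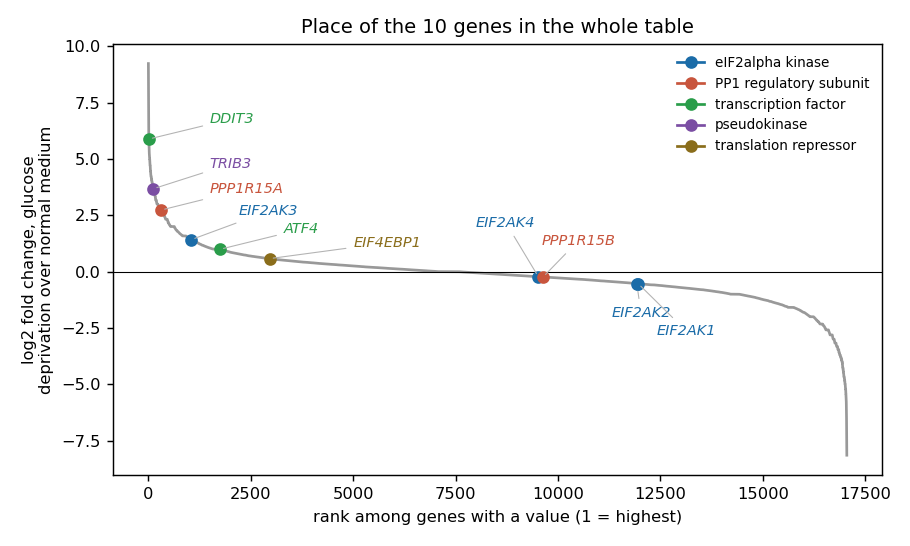
Log2 fold change (glucose deprivation over normal medium) of all 17054 genes with a value, ordered from highest to lowest, with the 10 members marked. DDIT3 stands at position 13, TRIB3 at 124 and PPP1R15A at 314, while EIF2AK1, the lowest member, stands at 11962.

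Upstream reading frames, the feature through which ATF4 is known to be translated when eIF2alpha is phosphorylated, were counted in 1 annotated transcript per gene. Of the 10 members, 7 had at least 1 such frame, against 48.8% of 19466 coding genes. Among the 6 higher members 5 had one, all but EIF4EBP1, and among the 4 others 2 had one, EIF2AK2 and PPP1R15B. ATF4 and DDIT3 were the 2 members with a frame running past the main start codon, as 15.8% of coding genes have. In ATF4 there were frames of 1, 3 and 59 codons, and the frame of 59 codons ran 83 bases into the coding part. In DDIT3 there was a frame of 34 codons, followed by one of 73 codons that ran 190 bases into the coding part. The other frames ended at or before the main start: 22 and 26 codons in PPP1R15A, 8 and 51 in PPP1R15B, 8, 77 and 14 in TRIB3, 54, 18 and 8 in EIF2AK3 and 5 in EIF2AK2. EIF2AK1, EIF2AK4 and EIF4EBP1 had none. The choice of transcript matters for DDIT3, where 2 of 5 transcripts have a frame past the main start, and for EIF2AK3, where 1 of 2 has one, but not for ATF4, where all 3 have one. Which transcripts these cells carried was not measured, and the annotation says nothing of whether a frame was translated.

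**Figure D4:**
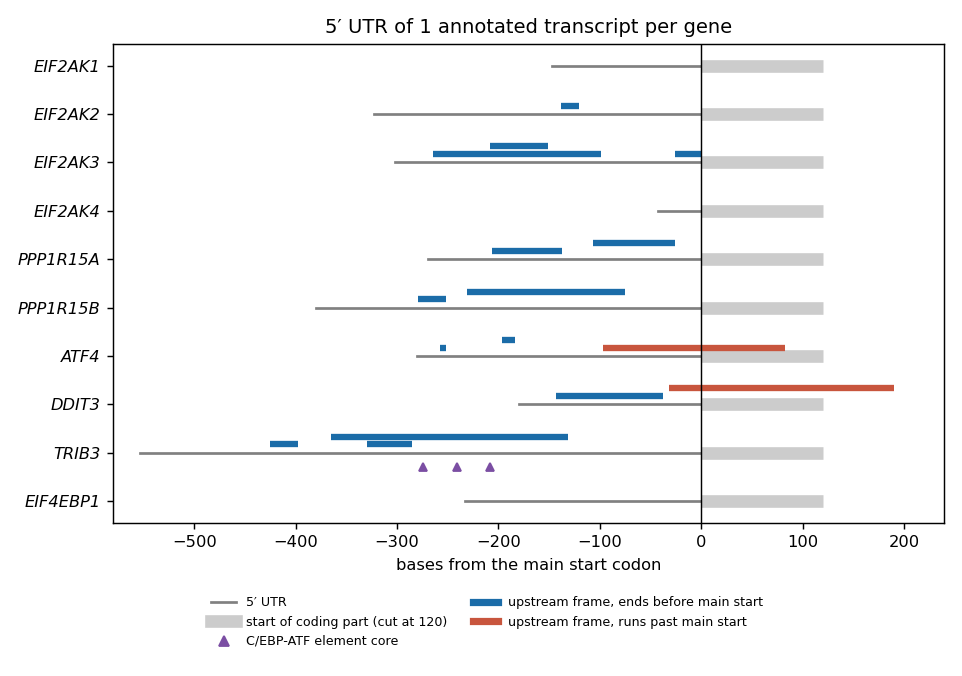
Upstream reading frames in the 5′ UTR of 1 transcript per member, drawn in bases from the main start codon, with the 3 C/EBP-ATF cores of TRIB3 as triangles. The frames of ATF4 and DDIT3 that run past the main start extend 83 and 190 bases into the coding part.

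Around the members, few subunits of eIF2 and eIF2B passed a size limit, while most genes listed as CHOP targets were higher. The counts of each list stand beside 29.0% higher, 22.3% lower and a median of -0.12 over all genes, and nothing is read from a share near these. The lists were chosen with earlier results of these data known, so their counts are descriptions. Activity of CHOP or of another factor was not tested. Of the 8 subunits of eIF2 and its exchange factor eIF2B, 1 was higher, EIF2S2 (0.57, the beta subunit), and none was lower, with a median log2 fold change of -0.30. EIF2S1, the phosphorylated alpha subunit and named here for that role, had -0.30. Of 7 factors for start codon choice, alternative tRNA delivery and reinitiation, 2 were higher, EIF1 (1.46), which guards start codon choice, and EIF2A (0.67), and none was lower, with a median of 0.13. That share of higher genes is close to the one over all genes.

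Among 12 regulators and partners of the kinases and of PP1, 6 were higher and none was lower, with a median of 0.20. The highest were HSPA5 (3.44), the ER chaperone BiP that binds PERK in unstressed cells, and DNAJC3 (1.90), the ER co-chaperone known as an inhibitor of PKR and PERK. NCK1, an adaptor protein, followed at 0.78, and DELE1, which carries mitochondrial stress to HRI, at 0.36. The 3 PP1 catalytic subunits, named as the enzymes that PPP1R15A and PPP1R15B recruit, passed neither size: PPP1CB had 0.11, PPP1CA -0.58 and PPP1CC -0.61.

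EIF4EBP1 was the only one of the eIF4E-binding proteins above 0. EIF4EBP2, which also binds eIF4E, was lower at -1.10, whereas EIF4EBP3 had -0.66. The numbers of EIF4EBP3 were only 12 in glucose deprivation and 19 in normal medium, with a listed FDR of 0.56. The cap-binding proteins EIF4E, EIF4E2 and EIF4E3 had -0.66, -0.41 and -0.08. Of these 5 genes none was higher and 1 was lower, and their median was -0.66.

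Among 14 partners and turnover factors of ATF4, 6 were higher and none lower, with a median of 0.20. The highest were ATF3 (3.70) and JUN (2.90), both basic leucine zipper factors induced by stress, then CEBPG (1.83), a dimer partner of ATF4, and CEBPB (1.82). Of 7 genes listed as CHOP targets besides the members, 6 were higher and none lower, with a median of 2.13. ERO1A was the gene of these 7 that passed neither size, at -0.23. CA6, the eighth, was absent from the authors' comparison. CHAC1, which degrades glutathione, was at 4.02 and DNAJB9, an ER co-chaperone, at 2.91. TNFRSF10B, the death receptor DR5, was at 2.17 and GADD45A, a growth arrest gene, at 2.13. Of 7 relatives and partners of TRIB3, SQSTM1 (1.76), an autophagy receptor, was higher, and TRIB2 (-1.49) and AKT1 (-0.95) were lower, with a median of -0.41. TRIB3 and TRIB2, 2 pseudokinases of one family, thus differed in direction.

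**Figure D5:**
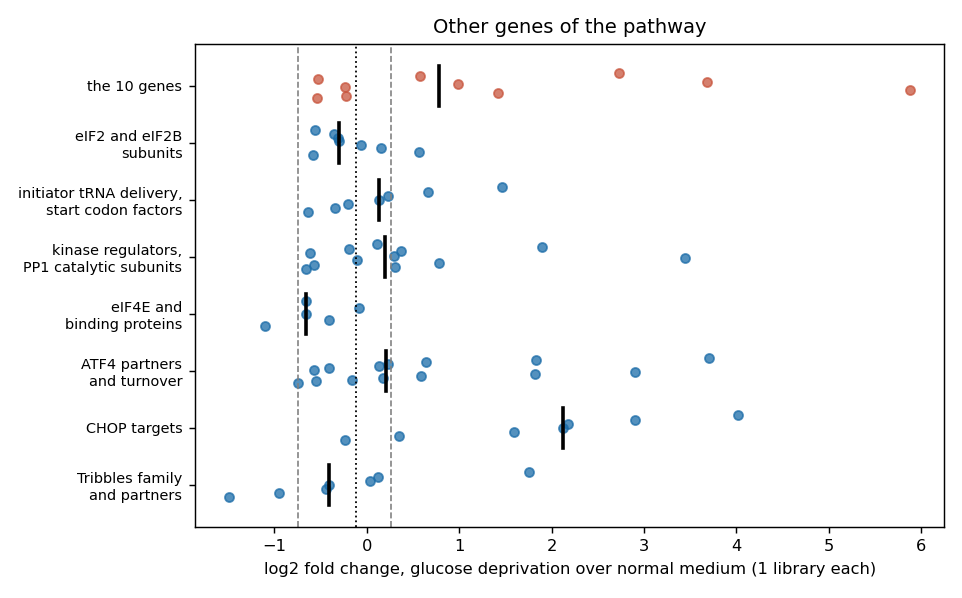
Log2 fold change (glucose deprivation over normal medium) of every gene with a value in the 7 pathway lists and among the members, each point a gene and each bar the list's median, with the size limits dashed and the median of all genes dotted. The genes listed as CHOP targets have the highest median, 2.13, and those for eIF4E and its binding proteins the lowest, -0.66. The lists were chosen with earlier results known.

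Some features of both libraries bear on all values above. The order of the groups in the comparison was taken from its column names and from EZH2, which the study describes as lower in glucose deprivation. EZH2 had a log2 fold change of -0.95. The median of all genes lay at -0.12, and with every value set relative to it no member changed its call: PPP1R15A stood at 2.85, ATF4 at 1.11 and EIF2AK1 at -0.42. Of 7 colon epithelial markers 6 had a value, of which 2 were higher and 1 lower, and VIL1 was listed without one. CDH1 was higher, with a fold of 2.74 and the numbers 6931 in glucose deprivation and 2530 in normal medium. LGALS4 was higher at a log2 fold change of 1.00, with the numbers 2 in glucose deprivation and 1 in normal medium. CDX2 was lower at -1.15, with 37 in glucose deprivation and 82 in normal medium. EPCAM (17649 in glucose deprivation and 17654 in normal medium), KRT8 (-0.23) and KRT18 (0.08) passed neither size. Of 6 markers of blood, stromal and endothelial cells 5 had a value, 3 of them higher (CD68, PTPRC and PECAM1) and 1 lower (COL3A1). The numbers of PTPRC were 4 in glucose deprivation and 3 in normal medium and those of COL3A1 1 and 7. CD68, a macrophage marker that other cells carry in lysosomes, had 83 and 9, a log2 fold change of 3.21. Unlike PTPRC and COL3A1, CD68 had a listed FDR of at most 0.001. Its pair is in lowest terms and may stand for larger values. The part of other cells, or of a shift in the epithelial markers, in the members' values was not tested.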

How the data were processed

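RNA of 2 HCT116 libraries, 1 per condition, was compared. The deposited table holds the authors' own comparison: a log2 fold change per gene from the expression values of both libraries, a p-value of the authors' Poisson test and an FDR. The deposited FDR was treated as a score, since 501 values exceed 1, and the p-value was not used. The methods name MGI2000 sequencing, Bowtie, RSEM and mm10, while Bowtie2, BWA and hg19, without versions, stand in the submitters' processing notes. The gene symbols are human. Both libraries are named HCT116 NC in the column names but wild type in the labels. In the paper, NC is the line set against the EZH2 knockdown.

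The 933 genes without a value were left out. Calls rested on size alone (fold above 1.2, log2 fold change below -0.75). The members and lists were chosen with earlier results of these data known. All members were named, and of each list at most 4 genes per direction past the sizes, with the largest change, and all genes of a list of 5. EIF2S1, the PP1 catalytic subunits and the markers were named for their roles, with their values known. ERO1A was named as the CHOP target that passed neither size. Whole-number pairs were sought as the simplest ratio within the rounding of the 9 decimals (relative tolerance 3.64e-10). This tolerance was chosen after 1e-07 had been tried. The search was tested on simulated pairs, which did not reach the larger numbers of ATF4, EIF4EBP1, DDIT3 and PPP1R15A. For each gene 1 GENCODE v29 transcript was taken: APPRIS principal, no alternative 5′ UTR tag, best support level, then longest coding part, a rule set after seeing that the longest transcripts retained introns. Upstream frames start at ATG and end at an in-frame stop. Protein sequences were not used here. Python 3.11.15, numpy 2.4.6, pandas 2.3.3 and matplotlib 3.10.9 were used. Alternatives were other sizes, the FDR and centring on the median of all genes.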

Additional observations from a re-analysis of the deposited data

How the results depend on the processing

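Of the 10 members, 6 were higher with or without the listed FDR of at most 0.001 and after centring on the median of all genes. This became 5 at 0.75 and 4 at 1 on the log2 scale. No member was lower at -0.75, with the FDR, at -1 or after centring, but 2 were at a fold of 1.2, EIF2AK1 and EIF2AK2. Of these settings, only centring could reverse a member's direction. The median of all genes, -0.12, was smaller in size than every member's change, so none could reverse. Over all genes, 4938 were higher and 3811 lower by size, but 2706 higher and 2231 lower with the FDR. Over all genes 2310 were higher at 0.75 and 1572 at 1 on the log2 scale, and 7191 were lower at a fold of 1.2. At a tolerance of 1e-07 the pairs of ATF4 (4864 in glucose deprivation and 2447 in normal medium) and EIF4EBP1 (4055 and 2717) differ from those above, and the other 8 do not. No paired analysis was possible because each condition has 1 library. For the same reason no library could be left out. The planned pseudocounts and filters on low values were not run, since the table gives no levels, and protein features were not computed. Depth limits every value to an unknown degree.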
